A study of Mus musculus with 6 samples.

Results

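The genes described here are 42 genes at the cell surface end of Wnt signalling, out of the 32285 genes counted in single-nucleus multiome libraries of mouse retina. They were taken by symbol from the gene expression rows of the matrices and comprise 18 Wnt ligands, 9 Frizzled receptors, 5 co-receptors, 3 R-spondins, 3 R-spondin receptors, 2 ubiquitin ligases that remove Frizzleds from the membrane and 2 genes for ligand processing. The multiome assay reads RNA and open chromatin (ATAC) from the same nucleus. All libraries came from whole retina of C57BL/6J mice, with 1 library and 2 eyes per group: a naïve control, retina given AAV2/2 for WIF1 overexpression at 2 weeks AVI, and the same at 4 weeks AVI. WIF1 (Wnt inhibitory factor) is secreted and sequesters Wnt ligands outside the cell. The labels do not expand AVI or say whether eyes were pooled. The design describes vectors that express Wif1 from the CMV promoter, one of them with a GFP reporter, but not which of them these eyes received. Since the control was naïve, effects of the injection, the vector and WIF1 cannot be told apart here. The GFP control vector and the spatial data were not analysed here.

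Wnt proteins are lipid-modified in the secretory pathway by the acyltransferase PORCN and carried to the cell surface by WLS. At the receiving cell they bind a Frizzled together with LRP6, which leads to stabilised beta-catenin, or with ROR1, ROR2, RYK or PTK7, which serve branches that do not need beta-catenin. R-spondins bind LGR4, LGR5 and LGR6 and clear the ubiquitin ligases ZNRF3 and RNF43, so that more Frizzled stays on the membrane. In the retina this signalling is known for its roles in eye patterning, synapse layering, vessel growth and the responses of Müller glia.

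The matrices held 8556, 13528 and 10334 barcodes and 21805441, 14568384 and 19997276 RNA UMIs (unique molecular identifiers, counted RNA molecules) in the control, the 2-week library and the 4-week library, and this order is used throughout. ATAC counts came to 37525307, 90490537 and 71304238. After filters, 7172, 8848 and 8921 nuclei were kept, with median depths of 1635, 800 and 1200 UMIs and median mitochondrial shares of 1.88%, 0.519% and 0.600%. Between 142 and 207 barcode sequences were shared by each pair of libraries. Wif1 itself had 1, 11 and 37 UMIs in the kept nuclei. Clusters with at least 3 fixed markers gave rod-like (4100, 5576 and 6023 nuclei), cone-like (397, 475 and 454), bipolar-like (1647, 1612 and 1658), amacrine-like (481, 227 and 122), Müller-like (79, 266 and 214), endothelial-like (66, 54 and 77) and a mural class, pericyte or smooth muscle-like, of 48, 44 and 55 nuclei, called pericyte-like below. Retinal ganglion-like nuclei numbered 8, 0 and 1, so that nothing can be said of these genes in ganglion cells.

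Levels are CPM, UMIs of the gene scaled to a fixed total of the class,, and each range after a level or ratio is a 95% interval that covers counting error only. With 1 library per group no difference has a replicate check and no test was made, so ratios describe these libraries. The counts are not scaled to gene length, so levels are compared between classes and libraries and never between genes. A gene was called readable with at least 30 UMIs in a class of at least 40 control nuclei. By that measure 17 of the 42 genes were readable in the control library, 16 and 17 in the treated libraries, and 15 in all 3 libraries. In the control 13 genes were readable in bipolar-like nuclei, 9 in amacrine-like, 7 each in rod-like, cone-like and Müller-like, 2 in pericyte-like and 1 in endothelial-like nuclei.

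The other 24 genes were too sparse to place in any library. Of the ligands, Wnt10b was at 0 UMIs in every library, which in control bipolar-like nuclei allows up to 0.459 CPM at 3 counts. Wnt1, Wnt2, Wnt3, Wnt3a, Wnt6, Wnt7a, Wnt7b, Wnt8b, Wnt9b, Wnt11 and Wnt16 had between 0 and 15 UMIs in each library. Wnt5a had 26, 24 and 25 UMIs, Wnt9a had 31, 31 and 35, and Wnt2b had 60, 28 and 47, spread over several classes. These ligands include Wnt7a and Wnt7b, known for their part in brain vessel growth, and at these counts their senders cannot be named. Of the Frizzleds, Fzd1 had 15, 20 and 8 UMIs, Fzd2 had 27, 11 and 22, Fzd7 had 13, 33 and 27, Fzd8 had 15, 27 and 30, and Fzd9 had 17, 17 and 25. The R-spondins Rspo1 (2, 1 and 2 UMIs) and Rspo3 (5, 7 and 1), the receptor Lgr6 (10, 3 and 13) and the ubiquitin ligase Rnf43 (31, 36 and 45) complete the sparse group.

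The sequences shown are the 250 bases before the annotated start of Wnt5b, Wnt4 and Fzd10, whose promoter peak in the ATAC data was concentrated in the same class or cluster as their RNA, with a contrasting second start of Wnt5b. Fzd7 is shown because its peak was read where its RNA was too sparse to place. They come from RefSeq (GRCm38.p6) and are printed 5′ to 3′ on the gene's strand. Capitals mark GC boxes (GGGCGG on either strand, which may overlap) and, in the downstream Wnt5b start, the TCF/LEF core CTTTGAT.
Wnt5b upstream start, chr6:119544348-119544597, minus strand: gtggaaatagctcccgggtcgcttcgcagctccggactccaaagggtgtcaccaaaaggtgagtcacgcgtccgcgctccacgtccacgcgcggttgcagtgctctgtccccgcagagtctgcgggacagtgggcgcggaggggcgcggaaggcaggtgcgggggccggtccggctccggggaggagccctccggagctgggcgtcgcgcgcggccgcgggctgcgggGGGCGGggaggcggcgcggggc
Wnt5b downstream start, chr6:119449387-119449636, minus strand: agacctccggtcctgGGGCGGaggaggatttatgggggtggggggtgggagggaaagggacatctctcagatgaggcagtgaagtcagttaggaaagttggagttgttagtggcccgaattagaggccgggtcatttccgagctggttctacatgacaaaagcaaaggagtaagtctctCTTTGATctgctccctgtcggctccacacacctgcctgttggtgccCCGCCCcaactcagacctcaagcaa
Wnt4, chr4:137277385-137277634, plus strand: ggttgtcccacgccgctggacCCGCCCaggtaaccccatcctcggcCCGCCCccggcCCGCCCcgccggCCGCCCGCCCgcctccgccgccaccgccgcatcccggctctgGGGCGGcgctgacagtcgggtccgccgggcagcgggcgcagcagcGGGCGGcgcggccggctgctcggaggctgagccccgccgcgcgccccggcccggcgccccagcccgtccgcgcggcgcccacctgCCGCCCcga
Fzd10, chr5:128600856-128601105, plus strand: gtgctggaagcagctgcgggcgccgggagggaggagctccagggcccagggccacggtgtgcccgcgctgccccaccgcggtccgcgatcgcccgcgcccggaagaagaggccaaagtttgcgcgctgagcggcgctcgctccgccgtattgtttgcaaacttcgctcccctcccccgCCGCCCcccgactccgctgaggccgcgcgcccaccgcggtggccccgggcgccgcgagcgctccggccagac
Fzd7, chr1:59481897-59482146, plus strand: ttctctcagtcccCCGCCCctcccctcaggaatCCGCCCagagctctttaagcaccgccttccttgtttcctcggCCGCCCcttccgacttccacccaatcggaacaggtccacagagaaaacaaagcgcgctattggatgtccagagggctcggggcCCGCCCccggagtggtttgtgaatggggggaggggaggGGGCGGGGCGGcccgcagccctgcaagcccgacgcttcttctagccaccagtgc
In the windows of 300 bases that also take in the first 50 transcribed bases, GC content was 78.0% at the upstream and 55.0% at the downstream start of Wnt5b, 84.3% at Wnt4, 77.7% at Fzd10 and 66.7% at Fzd7. RefSeq windows were found for 29 of the 42 members, 33 windows in all, and both strands were searched. The GC box was in 24 of the 33, against 35.7% of all 32851 windows. The TCF/LEF core CTTTGAT was in 2 of the 33 (3.73% of all), CTTTGAA in 0 of the 33 (5.14% of all) and the OTX2/CRX core TAATCC in 3 of the 33 (7.06% of all). A match is a description of letters and not a binding site.

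Ligand RNA in the control lay mainly in bipolar-like nuclei. Of the 1278 UMIs of all 18 ligands in the classes, 1070 (83.7%) were in bipolar-like nuclei, a level of 164 CPM (154–174). Most of this sum was Wnt5b, with 896 UMIs in that class, and cluster 13 alone held 902 of the ligand UMIs (70.6%). The summed ligand level was 12.1 CPM in rod-like, 25.6 in cone-like, 24.8 in amacrine-like and 26.6 in Müller-like nuclei, and 129 CPM in pericyte-like nuclei. Of the 3 readable ligands, Wnt5b and Wnt4 were each concentrated in 1 bipolar-like cluster, and Wnt10a was spread over several, that of Wnt5b included.

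**Figure D1:**
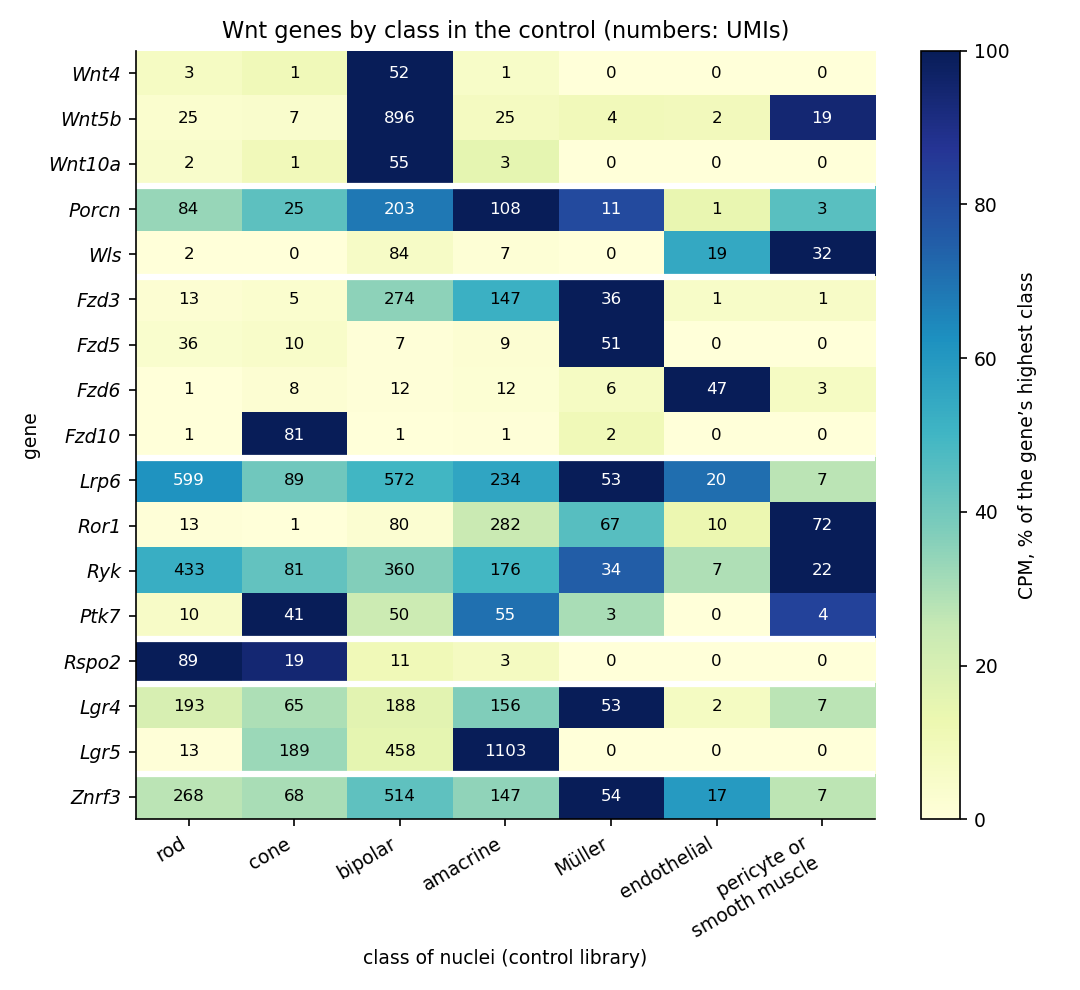
Readable genes (rows, grouped by role) in the classes of control nuclei (columns). Colour is the CPM as a percent of the gene's highest class and the printed numbers are UMIs. Wnt4, Wnt5b and Wnt10a are darkest in bipolar-like nuclei, and Wnt5b is nearly as dark in pericyte-like nuclei, on 19 UMIs. Fzd10 is darkest in cone-like, Fzd6 in endothelial-like and Lgr5 in amacrine-like nuclei, and Rspo2 in rod-like and cone-like nuclei.

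Wnt5b (ENSMUSG00000030170, chr6:119432531-119544824), a ligand known for acting mostly without beta-catenin, had 896, 686 and 720 UMIs in bipolar-like nuclei. The matching levels were 137 CPM (128–146), 178 (165–191) and 120 (112–129). Nearly all of it was in cluster 13, which is rod bipolar-like (Prkca, Car8, Sebox, Vstm2b and Ccdc136; 565, 574 and 617 nuclei). That cluster held 95.5%, 96.2% and 94.4% of the class's Wnt5b UMIs, and its control level was 41.8-fold (30.5–59.0) that of the other bipolar-like clusters. Within cluster 13 the level was 387, 443 and 280 CPM, highest at 2 weeks and lowest at 4 weeks. The ratio to the control was 1.15 (1.03–1.27) at 2 weeks and 0.724 (0.654–0.802) at 4 weeks, both well under the 2-fold limit used for calls. Pericyte-like nuclei had 19, 10 and 3 Wnt5b UMIs, and their control level of 129 CPM (77.9–202) could not be told from that of the bipolar-like class (ratio 1.06, 0.675–1.77). Rod-like nuclei had 4.53 CPM and amacrine-like 10.5 in the control.

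Wnt4 (ENSMUSG00000036856, chr4:137277635-137299501), a ligand known from kidney and gonad development, had 52, 37 and 40 UMIs in bipolar-like nuclei and at most 3 in any other class of the control. Of these, 50, 35 and 38 were in cluster 26, which had Sox5 and Igfn1 among its leading genes and the bipolar marker Vsx1 enriched, and held 129, 117 and 131 nuclei. The level in that cluster was 71.8, 102 and 69.2 CPM. The control level was 210-fold (55.1–1778) that of the other bipolar-like clusters, a ratio that rests on 2 UMIs outside the cluster. Over the whole class the intervals of the ratios to the control, 1.20 at 2 weeks and 0.839 at 4 weeks, included 1. Wnt4 thus read as the RNA of 1 small bipolar-like cluster in every library.

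Wnt10a (ENSMUSG00000026167, chr1:74792019-74804176), a ligand of the beta-catenin branch, was spread over several bipolar-like clusters. Its 55 control UMIs in the class gave 8.41 CPM (6.34–10.9). There were 14 UMIs at 2 weeks, 3.63 CPM (1.98–6.09), and 25 at 4 weeks, 4.17 CPM (2.70–6.16). Both treated libraries were lower, at 0.431 (0.221–0.786) and 0.496 (0.296–0.810) of the control, and these were the only calls among the ligands in bipolar-like nuclei. Within cluster 13 alone, with 29, 9 and 17 UMIs, the ratios were 0.461 (0.192–1.001) and 0.534 (0.275–1.005), intervals that just include 1. No peak was called at its promoter in any library.

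The genes that modify and export Wnt proteins followed the ligands only in part. Wls and summed ligand RNA were both high in pericyte-like nuclei, but the cluster with most Wnt5b RNA had little Wls. Wls (ENSMUSG00000028173, chr3:159839650-159938666), the carrier of Wnt proteins, had its highest control level among the ranked classes in pericyte-like nuclei, with 32 UMIs and 218 CPM (149–308). It came to 19 UMIs and 221 CPM at 2 weeks and 37 UMIs and 272 CPM at 4 weeks. Endothelial-like nuclei had 19, 4 and 15 UMIs, or 119, 39.7 and 85.2 CPM. The few microglia or macrophage-like nuclei had 9, 23 and 3 UMIs. That class was not ranked, with 15 nuclei and 31359 UMIs in the control. Its control Wls level was above the pericyte-like one, but rests on 9 UMIs. In endothelial-like nuclei the pericyte or smooth muscle markers summed to 974, 9.92 and 56.8 CPM in the same order, and their part in the endothelial-like values was not tested.

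In bipolar-like nuclei Wls had 84, 33 and 50 UMIs, of 156, 90 and 108 in all kept nuclei. They were confined in the main to clusters 27, 19 and 12. The control levels there were 166, 57.9 and 43.1 CPM from 36, 22 and 23 UMIs. Clusters 12 and 19 were OFF bipolar-like (Tacr3, Neto1 and Lhx3 in the former, Grik1, Fezf2, Erbb4 and Lhx3 in the latter). In cluster 12 only 1 UMI was left at 4 weeks. The rod bipolar-like cluster that held the Wnt5b RNA had 1, 1 and 2 Wls UMIs, and Müller-like nuclei had 0 in all 3 libraries.

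Porcn (ENSMUSG00000031169, chrX:8193846-8206548), the acyltransferase, had at least 30 UMIs in rod-like, bipolar-like and amacrine-like nuclei of all 3 libraries, and in Müller-like nuclei of both treated libraries (33 and 32 UMIs). Cone-like nuclei had 25, 29 and 27. In amacrine-like nuclei it had 108, 60 and 38 UMIs and levels of 45.3 CPM (37.2–54.7), 98.3 (75.0–127) and 79.9 (56.6–110). The 2-week library was 2.17-fold (1.55–3.0) the control, and the 4-week library 1.76-fold. Per nucleus the 2-week ratio was 1.18 (0.844–1.63), and the median amacrine-like nucleus held 2467 UMIs at 2 weeks against 4545 in the control. Within clusters 14, 21 and 22 the 2-week ratio was 2.71 (1.34–5.09), 2.78 (1.21–6.62) and 1.52 (0.964–2.37). Bipolar-like nuclei stood at 31.1, 46.9 and 30.7 CPM and rod-like at 15.2, 24.6 and 13.99, so the 2-week library had the highest Porcn CPM in each of these classes. Median depth at 2 weeks was lower there too, at 2345 UMIs against 3775 in the control for bipolar-like and 695 against 1164 for rod-like nuclei. Porcn ratios per nucleus were not computed for bipolar-like and rod-like nuclei.

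**Figure D2:**
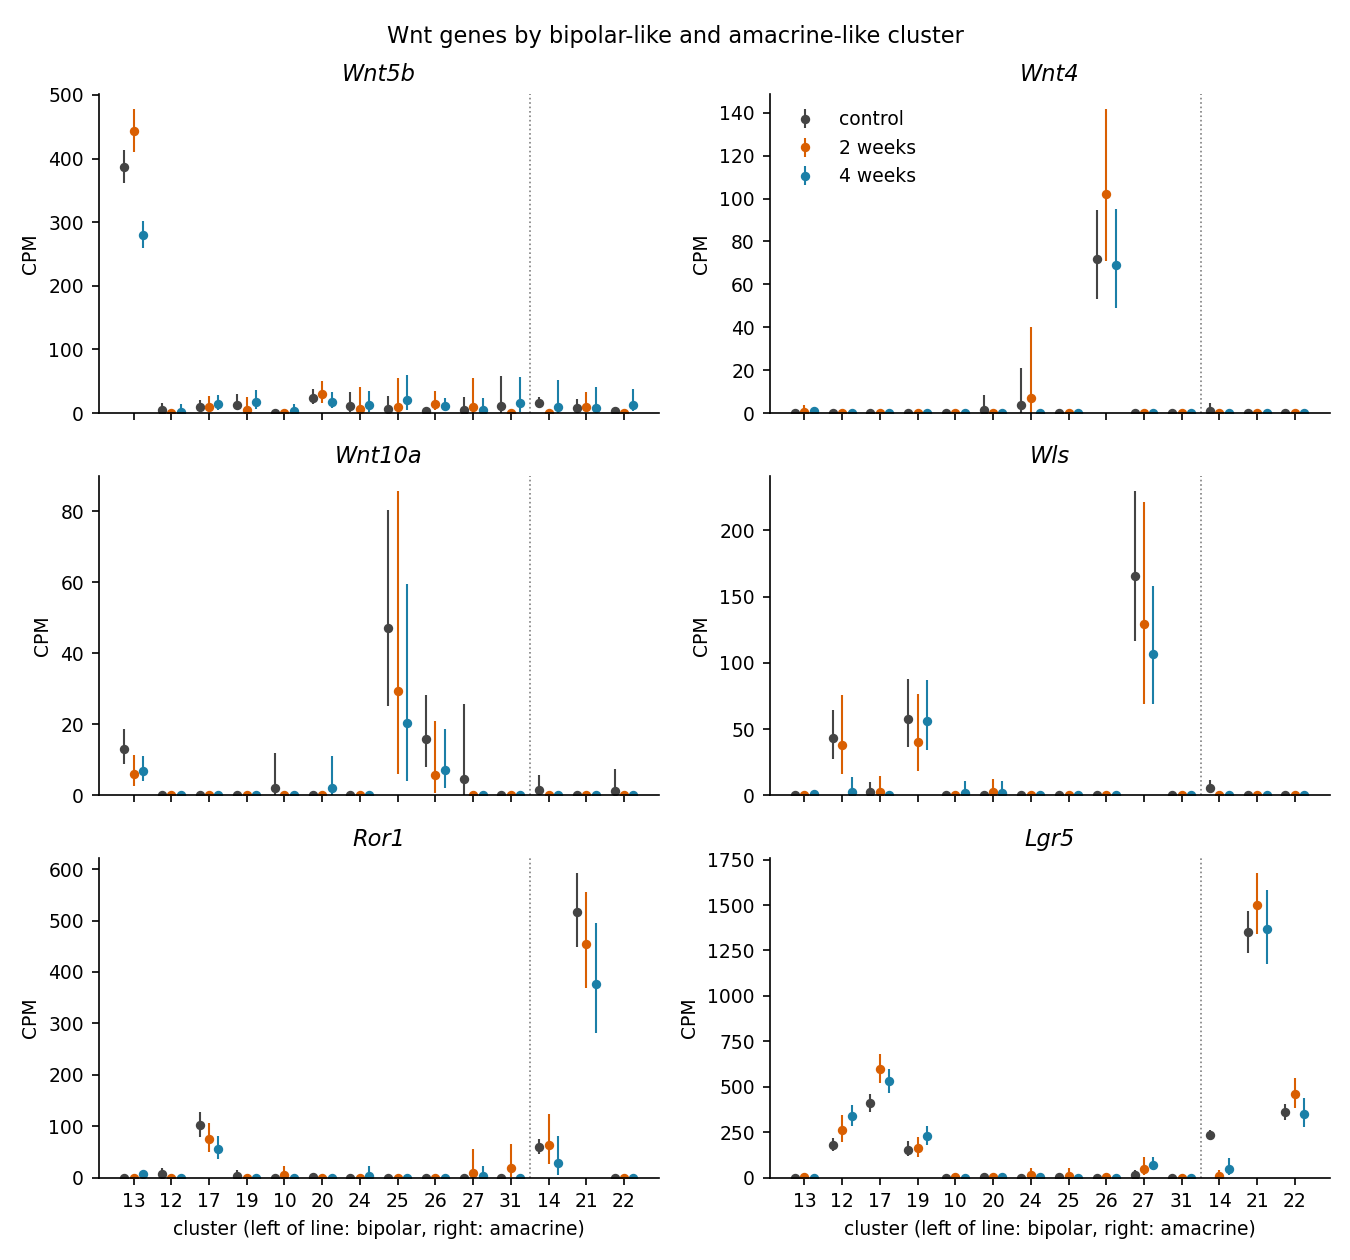
CPM of Wnt5b, Wnt4, Wnt10a, Wls, Ror1 and Lgr5 in each bipolar-like cluster (left of the dotted line) and amacrine-like cluster (right) of the 3 libraries. Points are CPM and bars are 95% counting intervals. Wnt5b stands out in cluster 13, Wnt4 in cluster 26, Wls in cluster 27, and Ror1 and Lgr5 in amacrine-like cluster 21, in the control as in both treated libraries.

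By level, Frizzled RNA was highest in other classes than ligand RNA. By share of UMIs, bipolar-like nuclei held the most Frizzled RNA of the control too, with 321 of 893 UMIs (35.9%), against 123 (13.8%) in Müller-like nuclei. Bipolar-like nuclei also held the most RNA of any class in the control, 6537087 UMIs against 301088 in Müller-like nuclei. The share therefore cannot be read apart from class size. The summed level of the 9 Frizzleds in the control was 409 CPM (340–487) in Müller-like and 331 (248–433) in endothelial-like nuclei, intervals that overlap. It was 83.3 in cone-like, 76.8 in amacrine-like, 49.1 in bipolar-like and 9.60 in rod-like nuclei. Fzd4, listed below with the Norrin arm, is not among the 9 Frizzleds and not in these sums. Of the 4 readable receptors, Fzd5 and Fzd3 were highest in Müller-like, Fzd6 in endothelial-like and Fzd10 in cone-like nuclei.

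Fzd5 (ENSMUSG00000045005, chr1:64730558-64737750), a receptor known for its role in eye formation, had 51, 88 and 132 UMIs in Müller-like nuclei. Its levels there were 169 CPM (126–223), 127 (102–157) and 174 (146–206), and the control interval overlaps both others. The next control class, cone-like nuclei, had 8.01 CPM, so that the Müller-like level was 21.2-fold (10.6–46.7) higher. Rod-like nuclei had 36, 38 and 33 UMIs, or 6.52, 8.82 and 4.48 CPM, and bipolar-like nuclei 1.07 CPM in the control. The Müller-like ratios to the control were 0.751 (0.526–1.08) at 2 weeks and 1.03 (0.739–1.45) at 4 weeks, and both intervals include 1. The 4-week level was 1.37-fold (1.04–1.81) the 2-week level, beyond counting error but under the 2-fold limit.

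Fzd3, a receptor known for axon guidance and planar polarity, had 36, 52 and 63 UMIs in Müller-like nuclei, or 120, 75.1 and 83.1 CPM. The control level was 1.94-fold (1.31–2.81) that of amacrine-like nuclei, which had 61.7, 60.6 and 94.7 CPM. Bipolar-like nuclei had 274, 150 and 247 UMIs, or 41.9, 38.9 and 41.2 CPM, and the ratios to the control, 0.927 (0.755–1.14) and 0.984 (0.825–1.17), include 1. The rule for calls was also tried in each bipolar-like and amacrine-like cluster with enough nuclei, for each pair of libraries. The only members it called were Fzd3 in cluster 20, Lrp6 in cluster 17 and Lgr5 in cluster 14. Cluster 20 had 28, 19 and 44 Fzd3 UMIs or 41.6, 42.8 and 87.5 CPM. Its 4-week level was 2.10-fold (1.28–3.51) the control, 1 of 4 members tested against 0.529% of all genes, and 2.04-fold (1.17–3.71) the 2-week level, 1 of 3 against 2.37%. In Müller-like nuclei the 2-week level was 0.628 (0.403–0.989) of the control, short of the 2-fold limit.

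Fzd6 (ENSMUSG00000022297, chr15:39006149-39038192), a receptor known for planar polarity, had 47, 28 and 54 UMIs in endothelial-like nuclei. The levels of 294 CPM (216–390), 278 and 307 overlapped, with ratios to the control of 0.946 (0.571–1.54) and 1.05 (0.694–1.58). Pericyte-like nuclei, next in order, had 3 UMIs in the control, and the endothelial-like level was 14.4-fold (4.63–72.2) higher. Cone-like nuclei had 8, 12 and 24 Fzd6 UMIs, below the minimum for a call.

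Fzd10 (ENSMUSG00000081683, chr5:128601106-128604093), a receptor of the beta-catenin branch, was a cone gene in these libraries, with 81, 91 and 73 UMIs in cone-like nuclei. All other ranked classes together had 5 UMIs in the control, with 1 each in rod-like, bipolar-like and amacrine-like nuclei and 2 in Müller-like nuclei. The cone-like levels were 64.9 CPM (51.5–80.6), 95.8 (77.1–118) and 57.0 (44.7–71.7). The 2-week level was 1.48-fold (1.08–2.02) the control, and the 4-week level 0.595 (0.431–0.819) of the 2-week level. The 2-week library was thus the high one, by less than 2-fold.

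Among the co-receptors, Lrp6, the partner of Frizzleds in the beta-catenin branch, and Ryk, a receptor with a Wnt-binding WIF domain, were read in every large class. Lrp6 ranged in the control from 71.3 CPM in cone-like to 176 (132–230) in Müller-like nuclei, and the order of neighbours is not resolved (Müller-like over endothelial-like 1.41, 0.829–2.49). In Müller-like nuclei Lrp6 had 53, 83 and 109 UMIs, or 176, 120 and 144 CPM. Ryk ranged from 55.1 CPM in bipolar-like to 150 (93.9–227) in pericyte-like nuclei, which could not be told from the 113 CPM of Müller-like nuclei (ratio 1.33, 0.739–2.34). Neither gene was called in any class of either treated library. Within OFF bipolar-like cluster 17 Lrp6 had 106, 38 and 102 UMIs, and its 4-week level was 2.07-fold (1.41–3.09) the 2-week level, where 3.09% of all genes were called higher.

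Ror1 (ENSMUSG00000035305, chr4:100095791-100444806), a receptor tyrosine kinase-like protein that binds WNT5A, was restricted to a few places. Pericyte-like nuclei had 72, 46 and 52 UMIs, or 490 CPM (384–617), 536 and 382. Müller-like nuclei followed with 67, 297 and 217 UMIs, and the control pericyte-like level was 2.20-fold (1.56–3.12) the Müller-like one. In the neurons Ror1 sat in 2 clusters. Amacrine-like cluster 21, marked by Ebf3 and Slc6a9 (99, 90 and 42 nuclei), had 208, 97 and 51 UMIs, or 516, 455 and 377 CPM, 13.8-fold the other amacrine-like clusters in the control. OFF bipolar-like cluster 17 (Grik1, Fezf2 and Nnat; 186, 190 and 157 nuclei) had 73, 29 and 28 UMIs, or 102, 74.7 and 55.6 CPM, and 84.7-fold (39.1–218) the other bipolar-like clusters in the control. In both clusters the 4-week level was lowest, at 0.730 (0.527–0.996) of the control in cluster 21 and 0.546 (0.340–0.855) in cluster 17. In the Müller-like class the order was different, with the control lowest and the 2-week library highest: 223 CPM (173–283), 429 (382–481) and 286 (249–327). The 2-week level was 1.93-fold (1.48–2.55) the control, just under the call limit, and the 4-week level 0.667 (0.557–0.797) of the 2-week level.

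Ptk7 (ENSMUSG00000023972, chr17:46564451-46630049), a co-receptor of the planar polarity branch, had 41, 40 and 52 UMIs in cone-like nuclei, or 32.8 CPM (23.6–44.5), 42.1 and 40.6. That was the highest control level, though not apart from the 4 UMIs of pericyte-like nuclei (ratio 1.21, 0.437–4.63), and at 2 weeks pericyte-like (5 UMIs, 58.2 CPM) and Müller-like nuclei (36 UMIs, 52.0 CPM) stood above it. Amacrine-like nuclei had 23.1 CPM and bipolar-like nuclei 7.65, 13.2 and 6.18 CPM (50, 51 and 37 UMIs). The bipolar-like level at 4 weeks was 0.468 (0.298–0.728) of that at 2 weeks, 1 of 12 readable members called lower in that pair, where 1.57% of all genes tested were.

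R-spondin RNA was seen mainly in photoreceptors. Rspo2 (ENSMUSG00000051920, chr15:43020788-43171594), the 1 readable R-spondin, had 89, 68 and 111 UMIs in rod-like nuclei and 19, 10 and 18 in cone-like nuclei. The rod-like levels were 16.1 CPM (12.9–19.8), 15.8 and 15.1, and the cone-like levels 15.2, 10.5 and 14.1. Rod-like and cone-like nuclei could not be told apart (ratio 1.06, 0.640–1.84), and rod-like nuclei held 89 of the 136 R-spondin UMIs of the control (65.4%). Bipolar-like nuclei had 11, 2 and 10 UMIs and Müller-like nuclei 0 in every library. The rod-like ratios to the control were 0.979 (0.703–1.36) and 0.935 (0.701–1.25), so Rspo2 was level across libraries within counting error. All 11 rod markers were detected in every class, and they summed to 3657, 1344 and 1667 CPM in Müller-like nuclei.

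The R-spondin receptors divided between neurons and glia. Lgr5 (ENSMUSG00000020140, chr10:115450314-115587780), known as a stem cell marker in gut, had 1103 UMIs in control amacrine-like nuclei, 463 CPM (436–491). At 2 weeks there were 446 UMIs and 731 CPM (665–802), and at 4 weeks 272 UMIs and 572 CPM (506–644). The control level was 3.06-fold (2.62–3.59) that of cone-like nuclei, which had 151, 178 and 167 CPM, and the bipolar-like class had 70.1, 87.8 and 85.0. Rod-like nuclei had only 13, 8 and 10 UMIs, and Müller-like nuclei 0, 0 and 3. Lgr5 RNA was thus read in cone-like, amacrine-like and some bipolar-like nuclei, and was near 0 in rod-like and Müller-like nuclei.

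The amacrine-like clusters differed in Lgr5. Cluster 21, the same one that held Ror1, had 544, 320 and 185 UMIs, or 1350, 1500 and 1368 CPM, 4.78-fold the other amacrine-like clusters in the control. Cluster 22, marked by Gjd2 and Tll1, had 362, 462 and 352 CPM. Cluster 14, with Gad1 and Gad2 but also some bipolar markers enriched, had 234, 7.90 and 46.8 CPM on 263, 44 and 24 nuclei. Lgr5 was called lower there at 2 weeks, 1 of 4 members tested, where 9.33% of all genes were. For the class as a whole Lgr5 was 1.58-fold (1.41–1.76) the control at 2 weeks, but within cluster 21 it was 1.11-fold (0.964–1.28), and 1.01-fold (0.853–1.20) at 4 weeks. Cluster 14 gave 263 of the 481 amacrine-like nuclei of the control but 44 of 227 and 24 of 122 in the treated libraries. All bipolar markers in amacrine-like nuclei summed to 1170, 537 and 532 CPM. The part of these differences in the class ratio was not tested. Among bipolar-like nuclei Lgr5 lay mainly in the 3 OFF bipolar-like clusters, at 410, 598 and 530 CPM in cluster 17, 182, 264 and 338 in cluster 12, and 155, 162 and 229 in cluster 19.

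Lgr4, the broadly used R-spondin receptor, was highest in Müller-like nuclei, with 53, 114 and 163 UMIs and 176 CPM (132–230), 165 and 215. That control level was 2.69-fold (1.93–3.69) that of amacrine-like nuclei, while cone-like, rod-like and bipolar-like nuclei had 52.1, 35.0 and 28.8 CPM. The ubiquitin ligase Znrf3, itself known as a feedback target of the pathway, was also highest in Müller-like nuclei at 179 CPM (135–234), 215 and 200 from 54, 149 and 152 UMIs. It could not be told from the 106 CPM of endothelial-like nuclei (ratio 1.69, 0.964–3.11). Müller-like nuclei thus had the highest control level of Fzd3, Fzd5, Lrp6, Lgr4 and Znrf3 among the ranked classes, for Lrp6 and Znrf3 not apart from the next class, while having 0 UMIs of Wls, Wnt4, Wnt10a, Rspo2 and Lgr5. At 0 UMIs a Müller-like level of up to 9.96 CPM is allowed by 3 counts.

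Between libraries, few members differed by the rule used (2-fold or more, an interval that leaves out 1, and at least 30 UMIs in the higher library). In rod-like nuclei 0 of 8 members were called at 2 weeks, where 2.93% of all genes tested were called higher and 1.8% lower, and 0 of 8 at 4 weeks (0.342% and 0.546%). In cone-like nuclei 0 of 7 were called at 2 weeks (2.76% higher and 3.55% lower over all genes) and 0 of 7 at 4 weeks (0.735% and 1.22%). In bipolar-like nuclei 1 of 13 was called lower at each time, Wnt10a, against 2.37% of all genes at 2 weeks and 0.603% at 4 weeks, and 0 of 13 higher (1.79% and 0.67%). In amacrine-like nuclei 1 of 8, Porcn, was called higher at 2 weeks (1.85% over all genes) and 0 of 8 lower (8.22%), and at 4 weeks 0 of 8 were called in either direction (0.38% and 8.26%). The median log2 ratio of the members to the control at 2 weeks was -0.05 in rod-like, 0.28 in cone-like, -0.11 in bipolar-like, 0.17 in amacrine-like and 0.08 in Müller-like nuclei, against 0.05, -0.05, -0.01, -0.18 and 0.17 over all genes tested. At 4 weeks it was 0.21, 0.14, -0.02, 0.19 and 0.18, against 0.05, 0.04, 0.03, -0.20 and 0.14. Endothelial-like nuclei had only Fzd6 above the minimum.

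In Müller-like nuclei the co-receptors Ror2 and Ptk7 were called higher at 2 weeks, and Wnt5b at 4 weeks. Ror1 fell short of the call limit, as given above, and the co-receptor Ryk went the other way, with 34, 50 and 63 UMIs or 113, 72.2 and 83.1 CPM and a 2-week ratio of 0.640 (0.406–1.02). Ror2 (ENSMUSG00000021464, chr13:53109317-53286124), the partner of WNT5A in that branch, had 7, 57 and 31 UMIs. The levels were 23.3 CPM (9.35–47.9), 82.4 (62.4–107) and 40.9 (27.8–58.0), with the 2-week library clear of the other libraries. The 2-week level was 3.54-fold (1.61–9.21) the control, and the 4-week level 0.496 (0.310–0.782) of the 2-week level, which makes Ror2 the 1 of 11 members called lower between the treated libraries (3.17% of all genes). Ptk7 had 3, 36 and 23 UMIs, or 9.96 CPM (2.06–29.1), 52.0 (36.4–72.0) and 30.3, and was 5.22-fold (1.65–26.5) the control at 2 weeks, a ratio that rests on 3 control UMIs. Wnt5b had 4, 24 and 32 UMIs in Müller-like nuclei, or 13.3, 34.7 and 42.2 CPM, and was 3.18-fold (1.13–12.4) the control at 4 weeks. With called doublets kept this ratio was 2.48 (0.959–8.15), which ends the call. In all, 2 of 10 members were called higher at 2 weeks and 0 lower (6.83% and 2.86% of all genes), and 1 of 10 higher and 0 lower at 4 weeks (3.0% and 0.58%).

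**Figure D3:**
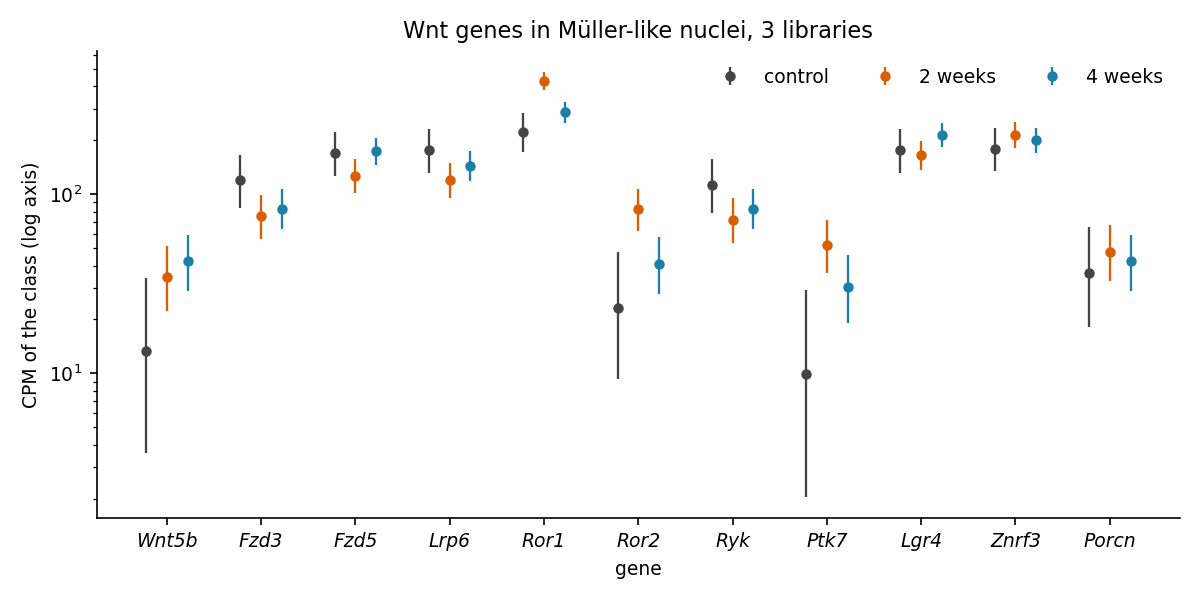
CPM (log axis) of readable members in Müller-like nuclei of the 3 libraries, with 95% counting intervals. Ror1, Ror2 and Ptk7 are highest at 2 weeks, Wnt5b is lowest in the control, and the intervals of Fzd5, Lgr4 and Znrf3 overlap between libraries.

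The Müller-like class was not made of the same sub-clusters in the 3 libraries, and these values bear on the calls. The sub-cluster led by Spc25 and Aqp4 held 60, 41 and 166 nuclei. The sub-cluster led by Lcn2 held 4, 99 and 25, and that led by BC055402 and Rgs6 held 5, 122 and 15. Ror2 had 5, 2 and 23 UMIs in the Spc25 sub-cluster, and there the 2-week level was 0.964 (0.0918–5.89) of the control, so the difference was not seen within that sub-cluster at this depth. Of the 57 Ror2 UMIs at 2 weeks, 34 were in the Lcn2 sub-cluster and 17 in the Rgs6 sub-cluster. Ptk7 had 3, 7 and 19 UMIs in the Spc25 sub-cluster, and its 2-week ratio there was 5.62 (1.28–33.7), as large as in the whole class. Wnt5b had 2, 0 and 15 UMIs in the Spc25 sub-cluster, a 4-week ratio of 3.02 (0.703–27.2), while the Lcn2 sub-cluster had 21 UMIs at 2 weeks and 13 at 4 weeks. All 12 Müller markers were detected in each library. Microglia markers in the class were detected for 4, 7 and 6 of 11 (76.4, 107 and 123 CPM, with Tmem119, Aif1 and Ptprc at 0 in all), and astrocyte markers for 5 of 6 with Pax2 at 0. The part of the rod marker sum given above and of these in the Müller-like ratios was not tested.

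Open chromatin at the start of some members followed their RNA, and at others it separated the classes little. A peak within 1000 bp of a gene's start interval was called in all 3 libraries for 28 of the 42 members. That interval can span distant starts, and Wnt5b had 11, 17 and 15 such peaks. Counts are given as CPM of all promoter counts of the group. Calls between libraries sum all peaks of a gene. In the control Fzd5 had 264 CPM in Müller-like and 199 in rod-like nuclei, a ratio of 1.33 (1.01–1.72), though its RNA was far more restricted. At Fzd6 and Ror1 the leading class was that of the RNA but not apart from the next. Endothelial-like over Müller-like nuclei was 1.35 (0.609–3.13) at Fzd6. Pericyte-like over endothelial-like nuclei was 1.34 (0.519–3.39) at Ror1. At the upstream start of Wnt5b, whose sequence is printed above, the control peak (chr6:119543723-119544626) had 123 counts in rod bipolar-like cluster 13, 51.3 CPM, which was 9.44-fold the other bipolar-like clusters, and 22 counts or 2.10 CPM in rod-like nuclei. The corresponding peaks had 117 counts and 32.1 CPM in that cluster at 2 weeks and 186 counts and 34.8 CPM at 4 weeks. A second Wnt5b peak (chr6:119522927-119523795 in the control) lay between the printed starts. It was more restricted, with 136, 154 and 187 counts in cluster 13 and 19.8-, 15.6- and 37.7-fold the other bipolar-like clusters. The peak at the downstream start (chr6:119448731-119449562) was less so, at 2.06-fold in the control. Another Wnt5b peak between the printed starts (chr6:119478979-119479854) was open in classes with and without much Wnt5b RNA. It had 139 CPM in rod-like, 128 in bipolar-like and 174 in Müller-like nuclei of the control.

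At Wnt4 the control peak (chr4:137276759-137277652) had 31 counts in cluster 26, 76.5 CPM and 10.5-fold the other bipolar-like clusters. It was 7.55-fold at 2 weeks and 3.95-fold at 4 weeks, again on 31 counts each. Müller-like nuclei had 8 counts in the control without Wnt4 RNA. At Fzd10 no peak was called in the control. The peak of the treated libraries (chr5:128600416-128601255 at 2 weeks) had 167 counts in cone-like nuclei at 2 weeks and 106 at 4 weeks, 38.7-fold and 55.8-fold the other classes, and Müller-like nuclei had 45 and 11. Since peaks were called in each library separately, a missing call is not a closed promoter. At Fzd7, whose RNA was too sparse to place, the peak (chr1:59481640-59482526 in the control) had 31, 133 and 71 counts in Müller-like nuclei, or 139, 119 and 109 CPM and 9.42-, 6.33- and 7.73-fold the other classes. Pericyte-like nuclei had 44.9, 154 and 111 CPM at the same place. Of the 13, 33 and 27 Fzd7 UMIs, 9, 25 and 18 were in Müller-like nuclei, which is below the minimum for a readable gene. At Lgr5 the control peak was open in cone-like (57.4 CPM) and amacrine-like nuclei (35.3 CPM) and close to unread in rod-like nuclei (1.14 CPM). The order of cone-like over amacrine-like nuclei (1.63, 1.17–2.27) was the reverse of that of the RNA.

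**Figure D4:**
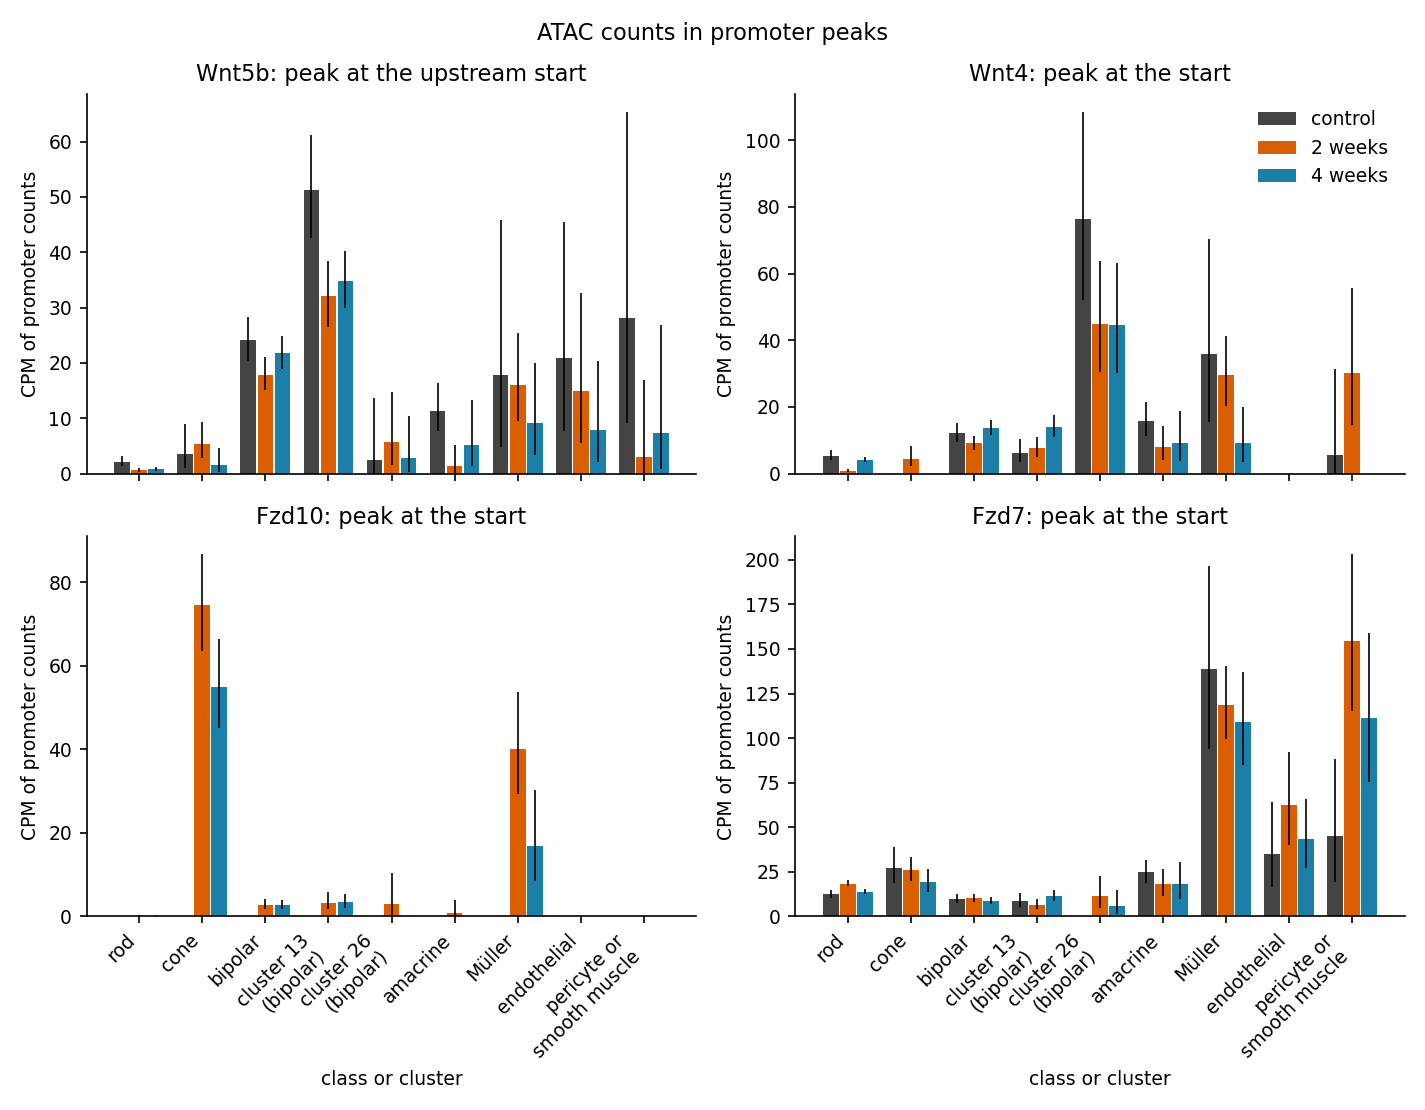
ATAC counts in promoter peaks of Wnt5b (upstream start), Wnt4, Fzd10 and Fzd7, as CPM of promoter counts, by class or bipolar-like cluster and library, with 95% counting intervals. The tallest bars are cluster 13 for Wnt5b, cluster 26 for Wnt4 and cone-like nuclei for Fzd10 (not called in the control), and for Fzd7 Müller-like nuclei in the control and pericyte-like nuclei at 2 weeks.

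Between libraries, no member was called in both RNA and promoter peaks of the same class, and Ptk7 was called for both in different classes. A promoter call needed a peak in all 3 libraries, which Wnt10a and Ror2 lacked. How often both calls meet over all genes was not computed, so neither agreement nor conflict is read from this. In bipolar-like nuclei Lgr6 had 55, 257 and 248 counts and was higher at 2 weeks (3.27, 2.43–4.46) and at 4 weeks (2.76, 2.05–3.76), 1 of 28 members each time, against 1.63% and 0.934% of all genes with promoter peaks. The Lgr6 counts were summed over 2, 5 and 4 peaks in the 3 libraries, so these ratios do not compare the same sites. The part of the added peaks in the ratios was not tested. Lgr6 RNA in this class was 0, 1 and 3 UMIs. Rspo2 (35 and 15 counts, ratio 0.300) and Wnt1 (45 and 30, 0.466) were lower there at 2 weeks (1.56% of all) and Wls at 4 weeks (31 and 22 counts, 0.434; 1.01% of all). In rod-like nuclei Fzd9 was higher at 2 weeks (134 and 936 counts, ratio 2.79, 2.33–3.37), 1 of 24 members against 1.65% of all. Wnt2b, Wnt4 and Ptk7 were lower in rod-like nuclei at 2 weeks (5.54% of all), and Wnt2b and Ptk7 also at 4 weeks (3.0% of all). Wnt4 had 56, 24 and 115 counts there. Of these members, only Wls was readable as RNA in the class where its promoter differed, and its RNA ratio there at 4 weeks was short of 2-fold.

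In amacrine-like nuclei 6 of 25 members were lower at 2 weeks (Wnt2b, Wnt7a, Wnt9a, Wnt9b, Fzd6 and Rspo2), against 8.53% of all genes, and 3 of 24 at 4 weeks (Wnt2b, Ror1 and Fzd6), against 7.39%. Fzd6 had 54, 3 and 7 counts there. The class held fewer cluster 14 nuclei in the treated libraries, as given above. In Müller-like nuclei 2 of 13 members were higher at 2 weeks, Lgr6 (2 and 57 counts) and Wnt9a (6 and 87 counts, ratio 2.90), against 8.4% of all genes. At 4 weeks 3 of 9 were higher (7.18% of all): Ror1 (5 and 43 counts, ratio 2.95, 1.17–9.55), Fzd1 (5 and 61, 4.19) and Lrp6 (18 and 129, 2.46, 1.497–4.28). These control counts are low, and those of Lgr6 again come from fewer peaks than at 2 weeks. Lrp6 RNA in the class was not higher at 4 weeks, at 176 and 144 CPM.

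The other genes of the pathway, in lists chosen by function, also gave few calls. Of 18 extracellular Wnt inhibitors, Kremen1, a receptor of Dickkopf proteins, was higher at 2 weeks in rod-like nuclei (39 and 65 UMIs, 2.14-fold, 1.42–3.26) and in bipolar-like nuclei (39 and 51 UMIs, 2.22-fold, 1.43–3.45), 1 of 2 list members tested in each class. Of 17 beta-catenin transducers, Dvl1, which relays the signal from Frizzleds, was higher at 2 weeks in cone-like (44.0 and 101 CPM), amacrine-like (64.7 and 144 CPM) and Müller-like nuclei (33.2 and 75.1 CPM, 10 and 52 UMIs). Bcl9l, a beta-catenin co-activator, was 2.05-fold (1.57–2.70) the control in rod-like nuclei. The list had 13, 8, 13, 10 and 9 members tested in rod-like, cone-like, bipolar-like, amacrine-like and Müller-like nuclei at 2 weeks, with none lower. At 4 weeks 0 of its members were called in these classes.

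The 10 target and feedback genes were mostly too sparse. Of the 2 tested in rod-like nuclei at 2 weeks, Ccnd1 (a cell cycle gene) was lower, with 41 and 7 UMIs, 0.219 (0.0828–0.493), against 1.8% of all genes, and it stood at 51 UMIs and 6.93 CPM at 4 weeks. Of the 3 tested in amacrine-like nuclei at 2 weeks, Axin2, the standard feedback gene of the beta-catenin branch, was lower, with 31 and 2 UMIs, 0.252 (0.0292–0.990), against 8.22% of all genes, in the class whose cluster 14 share differed. Of 11 planar polarity genes 0 were called at 2 weeks, with 6, 5, 8, 5 and 4 tested in the same order of classes, and Vangl2 was higher in rod-like nuclei at 4 weeks (10 and 41 UMIs, 3.08, 1.52–6.88), 1 of 7 tested. Of the 6 genes of the Norrin arm, which holds Fzd4, only 2, 0, 1, 1 and 2 could be tested in those classes at 2 weeks, and 0 were called. At 4 weeks Adgra2, a co-activator of WNT7 signalling, was higher in rod-like nuclei (10 and 31 UMIs, 2.33, 1.11–5.32), 1 of 3 tested against 0.342% of all genes. The background shares of all genes for these classes are those given with the members above.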

How the data were processed

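The authors deposited raw counts of each called barcode for genes (RNA UMIs) and for peaks (ATAC), per the file headers. Cell Ranger ARC 2.0.1, Seurat 5.0.1, Signac 1.12.0 and mm10 are named in the submitters' processing notes. Peaks differ between libraries. The members and lists were chosen with earlier results of these data known.

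Nuclei needed at least 500 UMIs, 300 genes and at most 10% mitochondrial UMIs (7683, 9901 and 9637 passed). The Scrublet score of scanpy 1.11.5 marked 511, 1053 and 716 doublets at 0.8% per 1000 barcodes, since its automatic threshold marked 0, 316 and 0. Leiden clustering used 2000 variable genes without the Wnt genes, 30 components and resolution 1. Classes needed 3 fixed markers. Clusters with 2 markers of another class were split further, a limit set after seeing the data, as was the 40-nucleus minimum for ranked classes. In all 331, 463 and 302 nuclei stayed unnamed.

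UMIs were summed per class. CPM have exact Poisson intervals and ratios conditional binomial (Clopper-Pearson) intervals, both at 95% and for counting error only. Classes compared between libraries had at least 50 nuclei. Members of at least 30 UMIs in a class were named with their values, the others as too sparse. Scripts were tested on simulated data. Alternatives changed the nucleus filter, doublets, class naming, rod RNA, UMI minimum, fold, scaling and promoter distance.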

Additional observations from a re-analysis of the deposited data

How the results depend on the processing

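Of 107 recomputed counts, 77 stayed within 1.5 times the count reported and 30 did not. Of 180 recomputed single-gene ratios, 158 moved by less than their interval, 20 moved and 2 reversed. The reversed values are Ror2 in Müller-like nuclei taken within the sub-cluster led by Spc25 and Aqp4, an alternative chosen after seeing the data: 0.964 at 2 weeks over control and 1.92 at 4 weeks over 2 weeks. Over all classes the reported calls were 3 higher and 1 lower at 2 weeks, 1 higher and 1 lower at 4 weeks, and 0 higher and 2 lower at 4 weeks over 2 weeks. With doublets kept, 2 were lower at 2 weeks and 0 higher at 4 weeks, since the interval of Wnt5b in Müller-like nuclei then includes 1. With each nucleus named by its highest marker score, 3 genes were readable in endothelial-like and 4 in pericyte-like nuclei, 2 were lower at 2 weeks, 2 higher and 4 lower at 4 weeks, and 1 higher and 4 lower at 4 weeks over 2 weeks; Porcn in amacrine-like nuclei at 2 weeks (1.83) and Wnt10a at 4 weeks (0.584) then miss 2-fold. With at least 10 UMIs, 14 genes were readable in rod-like, 11 in cone-like, 5 in endothelial-like and 4 in pericyte-like nuclei, 2 were lower at 2 weeks, 2 higher and 2 lower at 4 weeks, and 1 higher and 4 lower at 4 weeks over 2 weeks. At 1.5-fold, 9 were higher and 2 lower at 2 weeks, 3 higher and 3 lower at 4 weeks, and 1 higher and 7 lower at 4 weeks over 2 weeks. As UMIs per nucleus, 10 were lower at 2 weeks, and 6 higher and 0 lower at 4 weeks over 2 weeks, where Ror2 (0.676) and Ptk7 (0.705) lose their calls, as does Porcn at 2 weeks (1.18). With rod RNA subtracted, 1 was lower at 4 weeks over 2 weeks, and as CPM outside mitochondrial, ribosomal RNA and rod genes also 1. As CPM of all ATAC counts, 4 promoters were higher at 4 weeks over 2 weeks, against 2 in the main setting. Those were Wnt4 in rod-like (1 of 26 members, 2.43% of all genes) and Rspo2 in bipolar-like nuclei (1 of 28, 1.69%). Lower in the main setting were Fzd1 in rod-like (1 of 26, 1.35%), Fzd9 in cone-like (1 of 20, 1.66%) and Wls in bipolar-like nuclei (1 of 28, 1.54%). In Müller-like nuclei Wnt4 and Wnt9a were lower (2 of 18, 3.59%). Apart from the lower UMI limit and fold, which widen the rule, the cause of the changed counts was not tested. Depth limits the Müller-like control (79 nuclei, 301088 UMIs) most among the classes where calls were made. No paired analysis was possible because each group has 1 library.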
